A study of Mus musculus with 20 samples.

Results

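The CREB transcription factors, their CRTC coactivators and the salt-inducible kinases that restrain those coactivators were followed in BAT, brown adipose tissue of the mouse, which makes heat in the cold. The 9 genes were Creb1, Crem and Atf1 (CREB factors), Crtc1, Crtc2 and Crtc3 (coactivators) and Sik1, Sik2 and Sik3 (kinases). They were named as members of one pathway, with earlier results of these data known, and were 9 of the 55471 genes in the count tables. All 9 were among the 15233 genes that passed the expression filter.

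The 20 mRNA libraries fell into 4 groups of 5: wild type at room temperature (WT_RT), wild type after 4 h of cold stress (WT_cold), and BAT with an adipose-specific knockout of CEBPB (a C/EBP transcription factor) at room temperature (KO_RT) and after 4 h of cold (KO_cold). The Cre driver, the age of the mice and the control genotype beyond "WT" are not given in the sources used here. Nothing in the labels says whether each library is from its own animal, so p-values measure only the spread between libraries, which may be technical.

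When cold activates sympathetic nerves, noradrenaline acts on beta-adrenergic receptors of brown adipocytes, cAMP rises and protein kinase A (PKA) phosphorylates CREB, which binds cAMP response elements in DNA. In parallel, salt-inducible kinases (SIKs) phosphorylate CRTCs, which 14-3-3 proteins then hold in the cytoplasm. PKA inhibits the SIKs, so that CRTCs lose these phosphates, enter the nucleus and join CREB. Both steps act on proteins. The libraries measured here show mRNA, and say nothing of phosphorylation or of where a protein is. Sik1 and Crem are also known as targets of CREB, and short repressor forms of CREM (ICER) come from a promoter inside the Crem gene.

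Library depth was 27.07 to 55.18 M counts, of which mitochondrially encoded genes took 28.82 to 36.02%. Cebpb, the targeted gene, averaged 105 ± 19.9 CPM (counts scaled to the TMM library size) in WT_RT and 143 ± 22.4 in WT_cold, against 0.564 ± 0.253 in KO_RT and 1.92 ± 0.277 in KO_cold (SD, n = 5 libraries each, as throughout). The summed level of 8 brown adipocyte markers was 6910 to 11200 CPM in the RT libraries and 16700 to 20200 CPM in the cold libraries, with 4 of the 8 called higher and 3 lower with cold in each genotype. Of all tested genes, 26.2% were called higher with cold and 30.2% lower in WT, and 27.5% and 31.7% in KO. On the first principal component of all genes, which separated cold from RT, 2 libraries, WT_RT replicate 4 and WT_cold replicate 5, were closer to the centre than the rest of their groups. In bulk tissue, fewer cells of a type and less RNA per cell cannot be told apart.

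RefSeq promoters of GRCm38.p6 (250 bases before to 50 after the start of a gene) were matched for 6 of the 9 genes: Creb1, Atf1, Crtc1, Crtc3, Sik2 and Sik3. They were searched on both strands for TGACG, the core of the cAMP response element, and for the full element TGACGTCA, which contains the core on each strand. The core was found in 3 of the 6, and they are shown because it is the element through which CREB factors bind DNA. A core occurred in 20.8% of the 32851 promoters of this length and a full element in 1.79%. The full element was in none of the 6. Capitals mark the core, written as TGACG where it lies on the gene's strand and as CGTCA where it lies on the other, and each sequence runs 5′ to 3′ on the strand of its gene.
Sik3, chr9:46012570-46012869 (+): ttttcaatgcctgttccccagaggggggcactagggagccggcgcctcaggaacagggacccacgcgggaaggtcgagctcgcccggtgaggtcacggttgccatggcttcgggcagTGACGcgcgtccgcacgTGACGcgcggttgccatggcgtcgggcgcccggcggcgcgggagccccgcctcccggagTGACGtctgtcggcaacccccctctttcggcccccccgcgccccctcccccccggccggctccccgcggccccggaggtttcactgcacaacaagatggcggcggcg
Sik2, chr9:51009024-51009323 (-): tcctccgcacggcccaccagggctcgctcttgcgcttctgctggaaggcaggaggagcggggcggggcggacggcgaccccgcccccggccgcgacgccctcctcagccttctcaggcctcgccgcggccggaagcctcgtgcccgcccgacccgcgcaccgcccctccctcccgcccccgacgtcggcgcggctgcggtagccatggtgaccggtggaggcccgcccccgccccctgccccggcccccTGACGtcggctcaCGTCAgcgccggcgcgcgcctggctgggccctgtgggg
Atf1, chr15:100227609-100227908 (+): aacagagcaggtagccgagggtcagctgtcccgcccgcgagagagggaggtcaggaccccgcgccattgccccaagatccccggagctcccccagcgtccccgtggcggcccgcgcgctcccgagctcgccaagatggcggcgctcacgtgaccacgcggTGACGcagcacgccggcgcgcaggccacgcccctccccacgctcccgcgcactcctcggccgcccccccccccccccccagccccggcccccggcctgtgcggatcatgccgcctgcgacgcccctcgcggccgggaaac
Sik3 held 3 cores, which began 133, 116 and 57 bases before the start. Sik2 held 2, one beginning 1 base before the start and one 12 bases after it. Atf1 held 1, which began 90 bases before the start. Creb1, Crtc1 and Crtc3 held none in this window. These matches describe letters in the promoter; binding was not measured here.

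Cold for 4 h raised 6 of the 9 genes in WT and lowered none: Sik1, Crem, Sik3, Atf1, Creb1 and Crtc2. Sik1 (3.14-fold), Crem (2.33-fold) and Sik3 (1.87-fold) moved most, and Atf1, Creb1 and Crtc2 moved by 1.14 to 1.22-fold. Among all 15233 genes tested, 26.2% were called higher and 30.2% lower in WT (edgeR's quasi-likelihood test, Benjamini-Hochberg adjusted p under 0.05). In KO, cold raised 7 of the 9, the same 6 and Crtc3, and lowered Sik2, against 27.5% of all tested genes called higher and 31.7% lower. The median change on the log2 scale was 0.24 over the 9 genes in WT and 0.27 in KO, and -0.05 over all tested genes in both. The libraries of cold and RT did not overlap for 4 of the 9 genes in WT, where this held for 38.2% of all tested genes, and for 8 of 9 in KO, where it held for 44.9%.

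**Figure D1:**
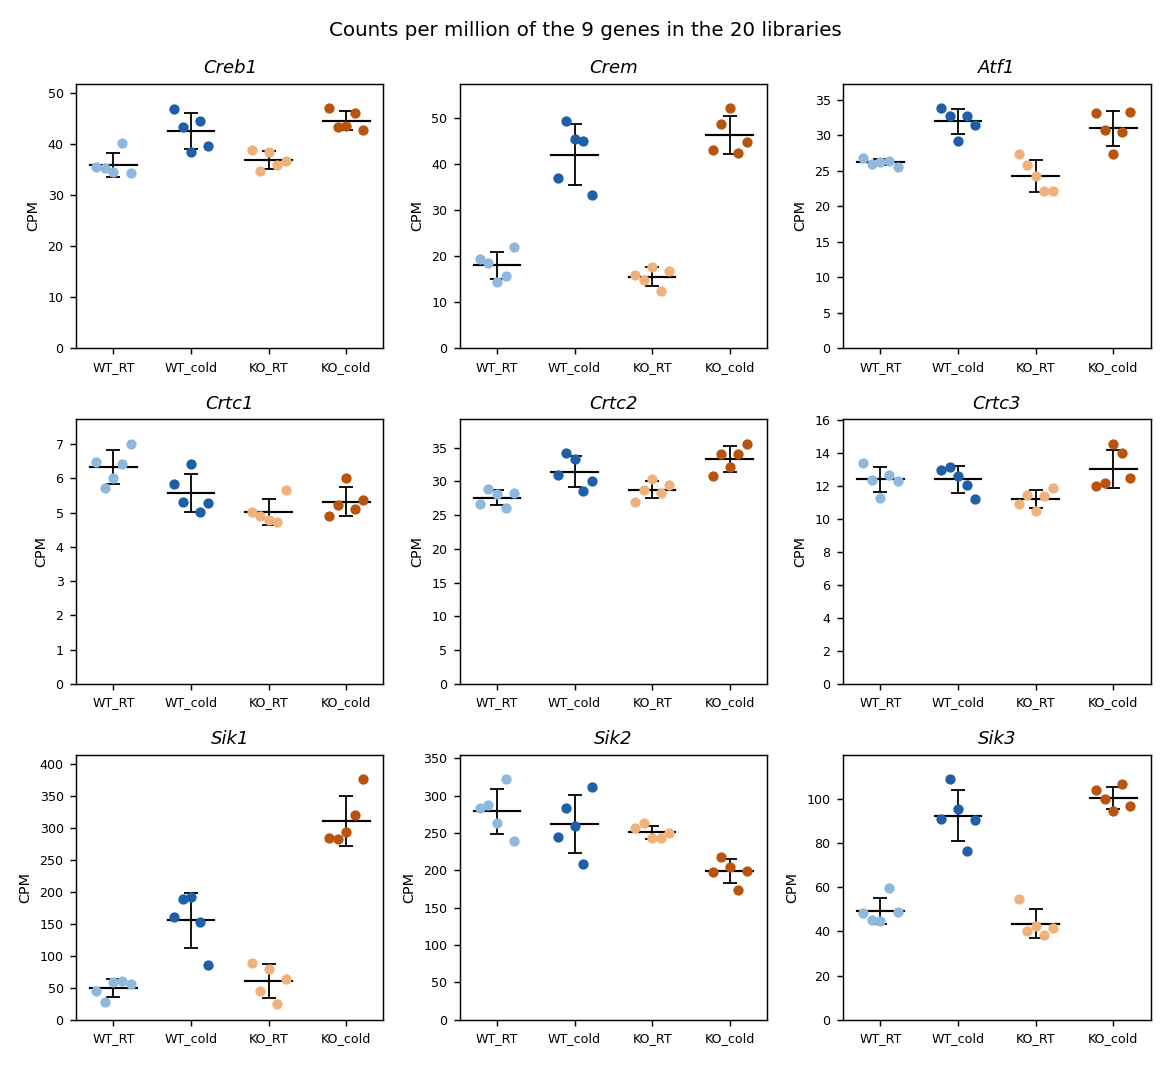
CPM (vertical axes, from 0, scaled for each gene) of the 9 genes in each of the 20 libraries by group (horizontal axes), with the mean as a bar and the SD as whiskers (n = 5). Sik1, Crem and Sik3 stand higher in every cold library than in every RT library of the same genotype, and Sik1 in KO_cold (282 to 376 CPM) lies above all other libraries.

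Of the CREB factors, Crem had the largest change. Crem (ENSMUSG00000063889.16, GRCm38 chromosome 18, 3266048 to 3337748, minus strand), whose products include both activators and repressors of cAMP-driven transcription, stood at 19.4, 18.6, 14.4, 15.7 and 21.9 CPM in WT_RT and at 37.0, 49.3, 45.5, 45.1 and 33.3 CPM in WT_cold. In KO_RT it stood at 15.8, 14.8, 17.7, 12.3 and 16.7 CPM, and in KO_cold at 43.1, 48.7, 52.3, 42.4 and 44.9 CPM. Every cold library was above every RT library in both genotypes. The cold change was 1.22 ± 0.12 (log2 ± SE) in WT (adjusted p = 3.38e-08) and 1.58 ± 0.122 in KO (adjusted p = 1.18e-09). The gene has 39 annotated transcripts, and counts per gene do not separate the ICER forms from the others.

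Atf1 (ENSMUSG00000023027.13, chromosome 15, 100227819 to 100261244, plus strand), an activator closely related to CREB, stood at 25.6 to 26.8 CPM in WT_RT and 29.2 to 33.9 CPM in WT_cold, with no overlap. In KO it stood at 22.1 to 27.3 CPM at RT and 27.3 to 33.3 CPM in the cold, where the highest RT library and the lowest cold library differed by less than the rounding, with means of 24.3 ± 2.24 and 31.0 ± 2.48. The cold change of Atf1 was 0.29 ± 0.065 in WT (adjusted p = 0.000647) and 0.35 ± 0.0656 in KO (adjusted p = 9.79e-05). Creb1 (ENSMUSG00000025958.14, chromosome 1, 64532645 to 64604548, plus strand), which encodes CREB itself, rose from 35.9 ± 2.4 to 42.5 ± 3.49 CPM in WT and from 36.9 ± 1.74 to 44.5 ± 1.91 CPM in KO. Its changes were 0.24 ± 0.0598 (adjusted p = 0.00145) and 0.27 ± 0.0601 (adjusted p = 0.000516). In WT the Creb1 libraries overlapped, since WT_RT replicate 4 stood at 40.1 CPM and WT_cold replicates 3 and 5 at 38.4 and 39.6 CPM.

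The coactivators moved little. Crtc2 (ENSMUSG00000027936.18, chromosome 3, 90254163 to 90264125, plus strand) rose with cold from 27.6 ± 1.14 to 31.4 ± 2.3 CPM in WT (0.19 ± 0.0572, adjusted p = 0.00744) and from 28.8 ± 1.28 to 33.3 ± 1.88 CPM in KO (0.21 ± 0.0575, adjusted p = 0.003). Crtc3 (ENSMUSG00000030527.15, chromosome 7, 80586627 to 80688877, minus strand) was at 12.4 CPM in both WT groups, a cold change of 0.00 with a 95% interval of -0.15 to 0.14. In KO, Crtc3 rose from 11.2 ± 0.567 to 13.1 ± 1.16 CPM (0.22 ± 0.0706, adjusted p = 0.0117), a call that was lost when the fit included the mean of the skeletal muscle markers, with a change of 0.24 (adjusted p = 0.0777). Crtc1 (ENSMUSG00000003575.13, chromosome 8, 70382355 to 70439579, minus strand), the lowest of the 9 genes, was not called for cold in WT (-0.18, 95% interval -0.37 to 0.00) or in KO (0.08, 95% interval -0.11 to 0.27).

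Among the kinases, Sik1 and Sik3 rose with cold in both genotypes, and Sik2 fell in KO. Sik1 (ENSMUSG00000024042.7, chromosome 17, 31844250 to 31855804, minus strand) stood at 45.6, 28, 58.3, 61.0 and 55.2 CPM in WT_RT and at 160, 189, 192, 153 and 85.4 CPM in WT_cold. In KO_RT it stood at 88.8, 45.2, 79.4, 24.4 and 64.3 CPM, and in KO_cold at 285, 282, 293, 320 and 376 CPM. WT_cold replicate 5 was the lowest of the cold libraries, and it still lay above every WT_RT library. The cold change was 1.65 ± 0.301 in WT (adjusted p = 0.000159) and 2.36 ± 0.308, or 5.15-fold, in KO (adjusted p = 4.03e-06).

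Sik3 (ENSMUSG00000034135.15, chromosome 9, 46012820 to 46224194, plus strand) stood at 48.2, 45.2, 44.9, 59.5 and 49.0 CPM in WT_RT and at 91.1, 109, 95.6, 76.4 and 90.7 CPM in WT_cold. In KO it stood at 54.8, 40.4, 42.6, 38.4 and 41.6 CPM at RT and at 104, 100, 94.8, 107 and 97.1 CPM in the cold. The groups did not overlap in either genotype, and the cold change was 0.91 ± 0.0962 in WT (adjusted p = 7.22e-08) and 1.21 ± 0.0971, or 2.31-fold, in KO (adjusted p = 1.4e-09).

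Sik2 (ENSMUSG00000037112.16, chromosome 9, 50892801 to 51009073, minus strand) stood at 284, 287, 263, 322 and 240 CPM in WT_RT and at 245, 283, 260, 209 and 312 CPM in WT_cold, with wide overlap. In KO_RT it stood at 257, 263, 243, 243 and 250 CPM and in KO_cold at 198, 218, 205, 174 and 199 CPM, with every cold library below every RT library. The cold change of Sik2 was -0.34 ± 0.0888 in KO (adjusted p = 0.00232) and -0.09 in WT (95% interval -0.28 to 0.09). Sik2 shares 1429 exon bases with Ppp2r1b on the other strand, and the strand-specific counts used here give 183953 counts to Sik2 over all libraries against 118340 without strand.

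**Figure D2:**
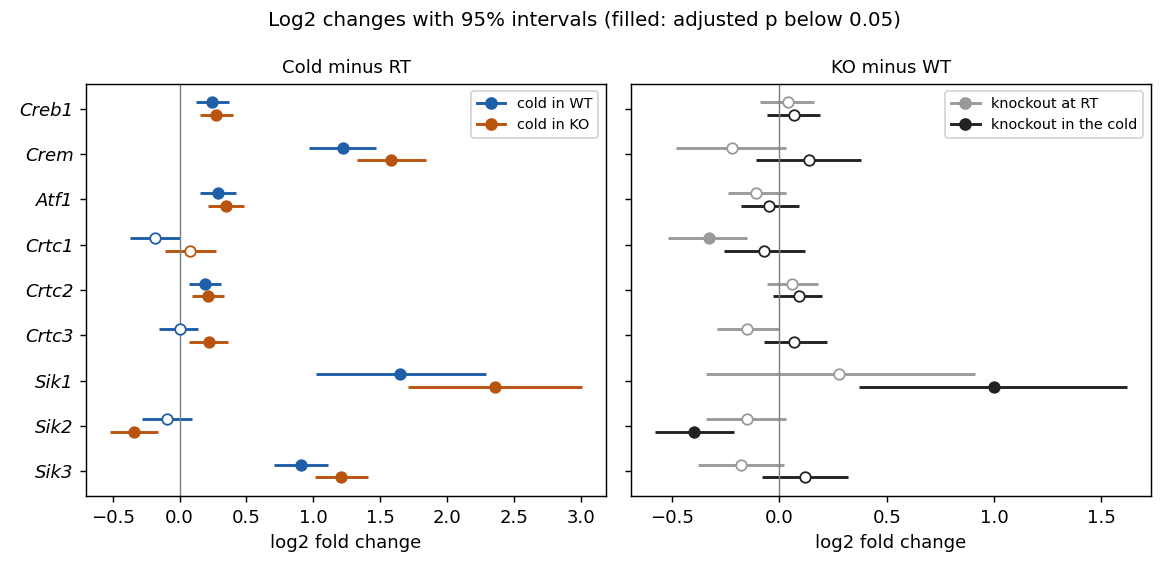
Log2 fold changes of the 9 genes (horizontal axes) with 95% intervals, for cold against RT in each genotype (left) and for KO against WT at each temperature (right); filled points passed an adjusted p of 0.05. Sik1 at 1.65 and 2.36, Crem at 1.22 and 1.58 and Sik3 at 0.91 and 1.21 lie farthest right on the left panel, and 3 points are filled on the right panel.

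Skeletal muscle markers were called lower with cold, and their summed level varied widely among the RT libraries. The summed level of 18 skeletal muscle markers was 58.8 to 1640 CPM in WT_RT, 50.1 to 92.5 in WT_cold, against 85.7 to 728 in KO_RT and 44.7 to 50.1 in KO_cold, and 17 of the 18 markers were called lower with cold in WT and 18 of 18 in KO. When the fit included the mean of these markers, the cold calls of Sik1, Sik2, Sik3, Crem, Atf1, Creb1 and Crtc2 passed in each genotype in which they had passed without it. Creb1 in KO passed narrowly (edgeR adjusted p = 0.0457), and the Crtc3 call in KO was lost (adjusted p = 0.0777). Since the markers themselves fell with cold, this term and cold are not fully separate in the fit. Over all tested genes, 30.2% were called lower with cold in WT and 31.7% in KO, and 26.2% and 27.5% higher. Of 11 tested lymphocyte markers, 4 were called lower with cold in each genotype, which is near the share of all genes. Of 6 adipocyte markers, 4 were called lower with cold in WT and 5 in KO, and of 7 endothelial markers 2 were called higher and 2 lower in WT and 4 higher and 2 lower in KO. Whether these cells had a part in the cold changes, the fall of Sik2 in KO included, was not tested.

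At room temperature the knockout changed 1 of the 9 genes. Crtc1 stood at 6.47, 5.72, 6, 6.42 and 7.02 CPM in WT_RT and at 5.01, 4.90, 4.78, 4.73 and 5.67 CPM in KO_RT. All 5 KO libraries were below all 5 WT libraries, and the difference was -0.33 ± 0.0906, or 1.26-fold lower (adjusted p = 0.0487). Among all tested genes 1.38% were called higher and 1.32% lower in this comparison. The call lay at the threshold. It was lost when any 1 of 8 libraries was left out (WT_RT replicates 1, 3, 4 and 5 and KO_RT replicates 1 to 4), with changes from -0.38 to -0.29 and adjusted p from 0.0354 to 0.15 over all 10 left-out libraries. The other 8 genes were not called. Their 95% intervals at RT ran from -0.09 to 0.16 for Creb1, -0.48 to 0.03 for Crem, -0.38 to 0.02 for Sik3 and -0.34 to 0.91 for Sik1, which varied most between libraries.

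In the cold the knockout changed 2 of the 9 genes, both kinases and in opposite directions. Sik1 averaged 311 ± 39.5 CPM in KO_cold and 156 ± 43.1 in WT_cold, and each of the KO libraries was above each of the WT libraries. The difference was 1 ± 0.295, or 2-fold, with a 95% interval of 0.37 to 1.62 (adjusted p = 0.048). Over all tested genes 3.51% were called higher and 4.19% lower. The call of Sik1 lay at the threshold too: leaving out any 1 of the 10 cold libraries kept the difference at 0.84 to 1.09 but ended the call (adjusted p from 0.0555 to 0.114). The lowest of these values, 0.84, came without WT_cold replicate 5.

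Sik2 averaged 199 ± 15.8 CPM in KO_cold and 262 ± 39 in WT_cold, and 4 of the 5 KO libraries were below the lowest WT library. The difference was -0.40 ± 0.0888, or 1.32-fold lower (adjusted p = 0.00586), and the call held with each library left out. The remaining 7 genes were not called in the cold: Crem differed by 0.14 (95% interval -0.11 to 0.38), Sik3 by 0.12 (-0.08 to 0.32), Crtc2 by 0.09 (-0.03 to 0.20) and Atf1 by -0.05 (-0.18 to 0.09). Markers of other cell groups also differed between the same libraries. The summed level of 6 adipocyte markers was 10600 to 14300 CPM in WT_cold and 9960 to 10200 in KO_cold, with 2 of 6 called lower, and that of 7 fibroblast and progenitor markers was 745 to 917 CPM in WT_cold and 963 to 1090 in KO_cold, with 4 of 7 called higher. Of the brown adipocyte markers 2 of 8 were called lower, and of the smooth muscle and pericyte markers 1 of 6 was called higher. Among all tested genes 3.51% were called higher and 4.19% lower in this comparison. The part of these cell groups in the Sik1 and Sik2 differences was not tested.

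Whether the knockout altered the cold response itself was tested by the interaction of genotype and cold. None of the 9 genes passed an adjusted p of 0.05 in edgeR or in DESeq2, and 0.742% of all tested genes passed in edgeR. The cold response in KO minus that in WT was 0.71 ± 0.416 for Sik1 (95% interval -0.17 to 1.59, adjusted p = 0.608) and -0.25 ± 0.125 for Sik2 (-0.51 to 0.01, adjusted p = 0.528). It was 0.36 for Crem (unadjusted p = 0.0436, adjusted 0.472), 0.30 for Sik3 (unadjusted p = 0.0376, adjusted 0.454) and 0.22 for Crtc3 (unadjusted p = 0.0372, adjusted 0.453). Thus a Sik2 that fell with cold in KO and was not called in WT is not shown to respond differently in the genotypes. The comparisons of cold and of knockout share libraries and are not independent of each other.

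Levels of different genes were compared per length, as RPKM (CPM per kilobase of annotated exon). At WT_RT the order was Sik2 at 29.3 RPKM, Sik1 at 9.67, Atf1 at 8.56, Crtc2 at 6.73, Sik3 at 5.30, Crem at 3.05, Creb1 at 2.61, Crtc3 at 1.26 and Crtc1 at 0.566. Neighbours whose libraries overlapped were Sik1 and Atf1, Crtc2 and Sik3, and Crem and Creb1. In WT_cold, Sik1 (30.4 RPKM) and Sik2 (27.4) headed the order with overlapping libraries. Atf1 (10.5), Sik3 (9.93), Crtc2 (7.67) and Crem (7.13) followed, each overlapping with the next, and Creb1 (3.09), Crtc3 (1.26) and Crtc1 (0.499) were last. In KO_RT the order was Sik2 (26.4), Sik1 (11.8), Atf1 (7.95), Crtc2 (7.03), Sik3 (4.67), Creb1 (2.68), Crem (2.62), Crtc3 (1.14) and Crtc1 (0.449), with overlap between Sik1 and Atf1, Atf1 and Crtc2, and Creb1 and Crem. In KO_cold, Sik1 (60.6 RPKM) stood above Sik2 (20.8) without overlap, followed by Sik3 (10.8), Atf1 (10.1), Crtc2 (8.14), Crem (7.85), Creb1 (3.24), Crtc3 (1.33) and Crtc1 (0.476), with overlap between Sik3 and Atf1 and between Crtc2 and Crem.

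The makeup of the kinase family changed most. Sik2 held 66.3% of the summed SIK level in WT_RT (61.1 to 74.5% over libraries), 41.0% in WT_cold (36.4 to 55.4%), 62.5% in KO_RT (53.8 to 74.2%) and 22.7% in KO_cold (19.8 to 25.8%). Sik1 held 21.7% in WT_RT (13.5 to 26.1%), 44.4% in WT_cold (28.1 to 49.9%), 26.6% in KO_RT (13.8 to 34.5%) and 65.5% in KO_cold (62.1 to 70.1%). Sik3, whose level rose with cold, held 12.0, 14.7, 10.9 and 11.8% in the same groups. The summed level of the 3 kinases was 44.2 ± 4.6 RPKM in WT_RT and 67.8 ± 8.64 in WT_cold, and 42.8 ± 5.84 in KO_RT and 92.2 ± 7.13 in KO_cold. In WT_cold, replicate 5 differed from the rest, with 28.1% for Sik1 and 55.4% for Sik2. Which of these kinases leads in WT_cold depends on the length used: per longest annotated transcript, Sik1 held 35% and Sik2 50%.

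In the CREB family, Crem held 21.4% of the summed level in WT_RT and 34.4% in WT_cold, against 19.7% in KO_RT and 37.0% in KO_cold. Atf1 held 60.2, 50.7, 60.0 and 47.7%, and Creb1 18.4, 15, 20.3 and 15.3%. Per longest transcript Crem instead led in the cold groups, with 43.3% against 41.2% for Atf1 in WT_cold and 46.1% against 38.3% in KO_cold. Crtc2 held 78.6 to 81.9% of the coactivator level in the 4 groups, Crtc3 13.3 to 14.8% and Crtc1 4.79 to 6.61%. The summed coactivator level was 8.56 ± 0.237 RPKM in WT_RT and 9.43 ± 0.644 in WT_cold, against 8.62 ± 0.324 in KO_RT and 9.95 ± 0.48 in KO_cold.

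**Figure D3:**
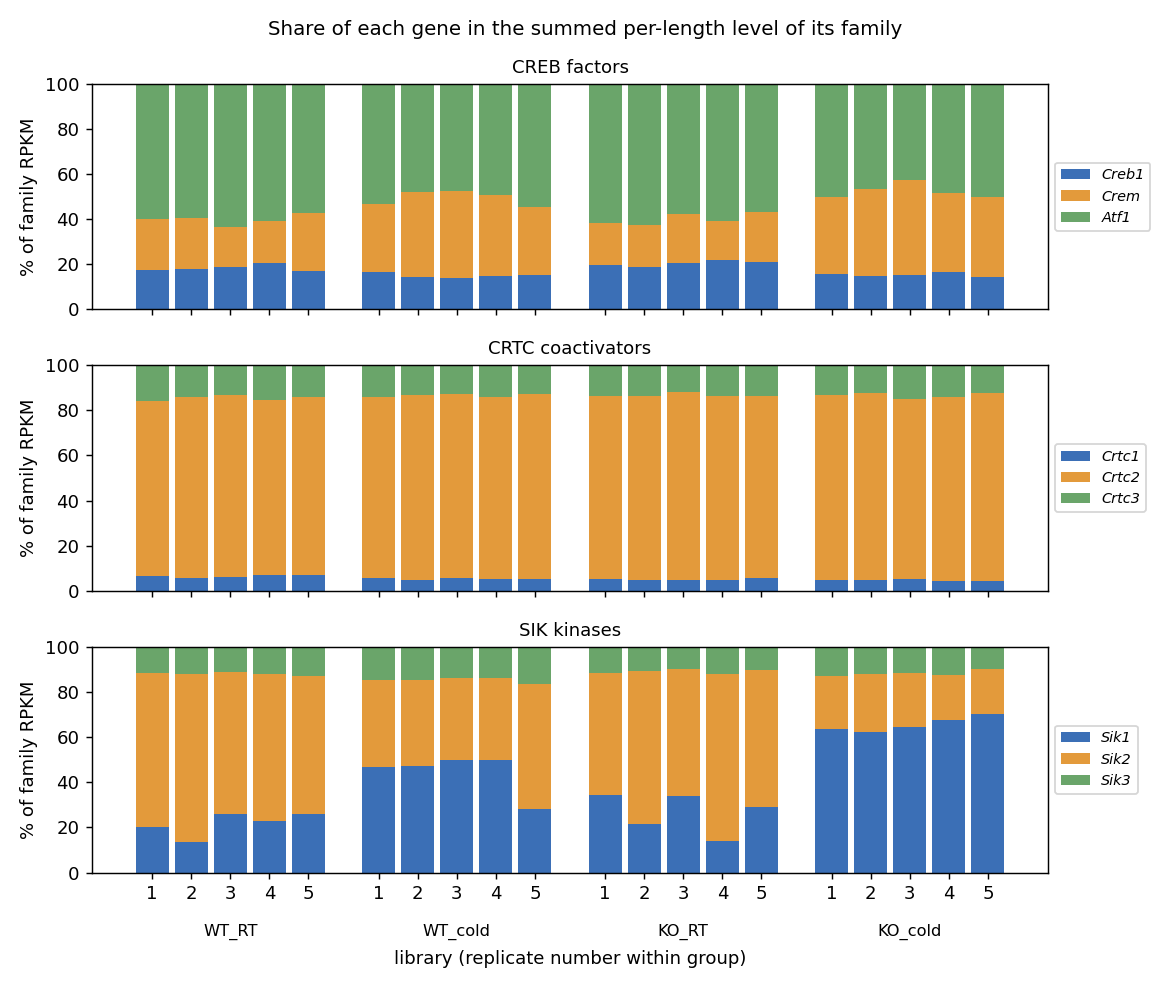
Share of each gene in the summed per-length level (RPKM) of its family in percent (vertical axes) for each of the 20 libraries, grouped by genotype and temperature, with CREB factors, CRTC coactivators and SIK kinases from top to bottom. Sik1 spans 13.5 to 26.1% in WT_RT, 28.1 to 49.9% in WT_cold, 13.8 to 34.5% in KO_RT and 62.1 to 70.1% in KO_cold. Crtc2 makes up most of the coactivator level in every library.

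The genes whose levels most resembled each member were ranked by Pearson correlation of log2 CPM over the 20 libraries among 8952 genes. The libraries share temperature and genotype groups, so the correlation is also given within groups, after group means were removed. For Sik1 the nearest genes were Nr4a1 (r = 0.966, within groups 0.822), Irs2 (0.965, within groups 0.901) and Nr4a2 (0.962, within groups 0.708), which encode 2 nuclear receptors of the immediate early response and an insulin receptor adaptor. All are in the list of known cAMP and CREB targets used below. That list was chosen with earlier results of these data known, so their place in it is no independent support. WT_cold replicate 5 had 6.42 log2 CPM of Sik1, 4.03 of Nr4a1, 7.22 of Irs2 and 5.43 of Nr4a2, each the lowest of its group.

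**Figure D4:**
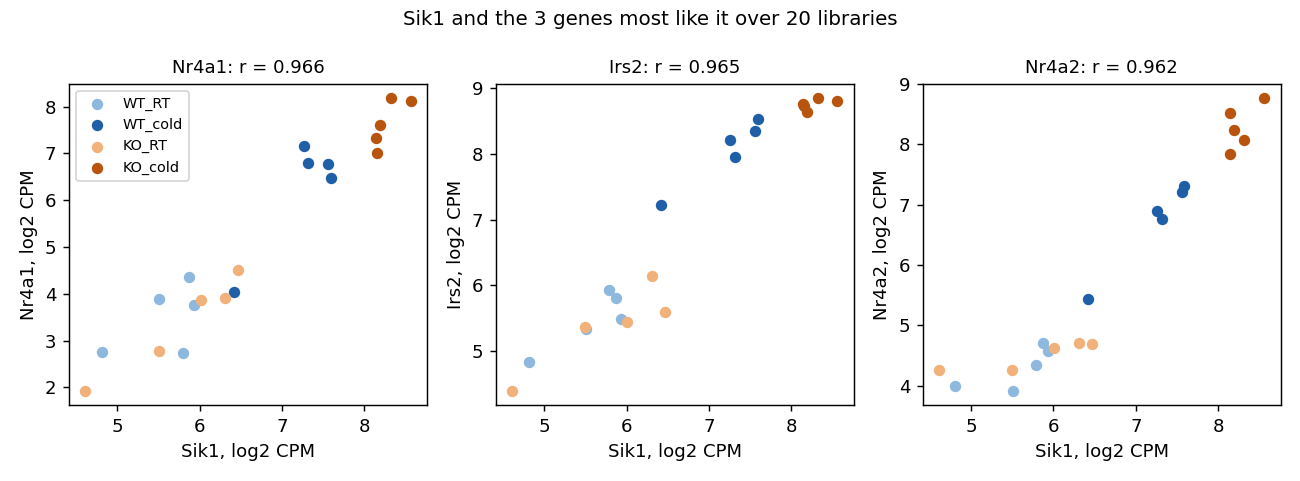
Log2 CPM of Sik1 (horizontal axes) against Nr4a1, Irs2 and Nr4a2 (vertical axes) in the 20 libraries, coloured by group. RT libraries lie at the lower left and KO_cold libraries at the upper right, and the WT_cold library at 6.42 for Sik1 is replicate 5.

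For Crem the nearest genes were Cxxc1 (r = 0.981, within groups 0.684), Slc3a2 (0.978, within groups 0.756) and Samd4b (0.976, within groups 0.601). For Sik3 they were Lin7c (0.983, within groups 0.778), Litaf (0.979, within groups 0.724) and Hnrnph2 (0.979, within groups 0.68). Genes like Sik2 included Arxes2 (0.872, within groups 0.669) and Arxes1 (0.867, within groups 0.799). For the other genes the value over all libraries is followed by that within groups. Creb1 was nearest to Smad7 (0.947, 0.817), Upf2 (0.937, 0.82) and Ezr (0.935, 0.743). Atf1 was nearest to Tent4b (0.941, 0.823), Lcor (0.939, 0.709) and Rc3h1 (0.934, 0.841). Crtc1 was nearest to Unk (0.826, 0.779), Mgat5 (0.794, 0.664) and Hacd1 (0.762, 0.475). Crtc2 was nearest to Gla (0.883, 0.582), Zfp628 (0.874, 0.699) and Nfil3 (0.862, 0.507). Crtc3 was nearest to Heatr6 (0.818, 0.773), Atic (0.806, 0.77) and Wwp2 (0.797, 0.801). Among the 9 genes, Crem and Sik3 had r = 0.941 over the libraries but 0.104 within groups, whereas Sik1 and Sik3 had 0.9 and 0.525.

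A list of 20 genes known as cAMP and CREB targets, chosen with earlier results of these data known, was set beside the 9 genes. All 20 were tested, and 17 were called higher and 1 lower with cold in WT and 16 higher and 1 lower in KO. Over all tested genes, 26.2% were higher and 30.2% lower in WT, and 27.5% and 31.7% in KO. The median change of the 20 was 1.95 in WT and 2.22 in KO. In WT the largest changes were those of Nr4a3 (4.35 ± 0.48), an orphan nuclear receptor, Atf3 (3.87 ± 0.325), a stress-induced transcription factor, and Dio2 (3.58 ± 0.284), the deiodinase that activates thyroid hormone. In KO they were those of Nr4a3 (5.61 ± 0.51), Atf3 (4.52 ± 0.319) and Nr4a1 (4.07 ± 0.572). Pck1, which makes glycerol phosphate precursors in fat, was the gene of this list that fell, by 0.27 on the log2 scale in WT and by 0.35 in KO, and its WT call was lost without WT_RT replicate 4 and WT_cold replicate 5.

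At RT the knockout lowered 1 target, Dio2 (307 CPM in WT_RT and 140 in KO_RT, -1.14 ± 0.261, adjusted p = 0.0245), a call lost without the expression filter, with only the groups compared, with the replicate number as a block and without WT_RT replicate 4 and WT_cold replicate 5. In the cold the knockout raised 3 targets: Nr4a2 (115 CPM in WT_cold and 319 in KO_cold, 1.47 ± 0.274, adjusted p = 0.00218), Atf3 (19.3 and 48.0 CPM, 1.31 ± 0.264, adjusted p = 0.0038) and Junb (8.53 and 16.7 CPM, 0.96 ± 0.173, adjusted p = 0.000898). The interaction was called for Junb, with a cold change 1.15 ± 0.25 larger in KO (adjusted p = 0.0296), and this call was lost under 4 of the 8 alternatives that give an interaction. Of all tested genes, the knockout lowered 1.32% at RT and raised 3.51% in the cold, and 0.742% were called in the interaction.

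**Figure D5:**
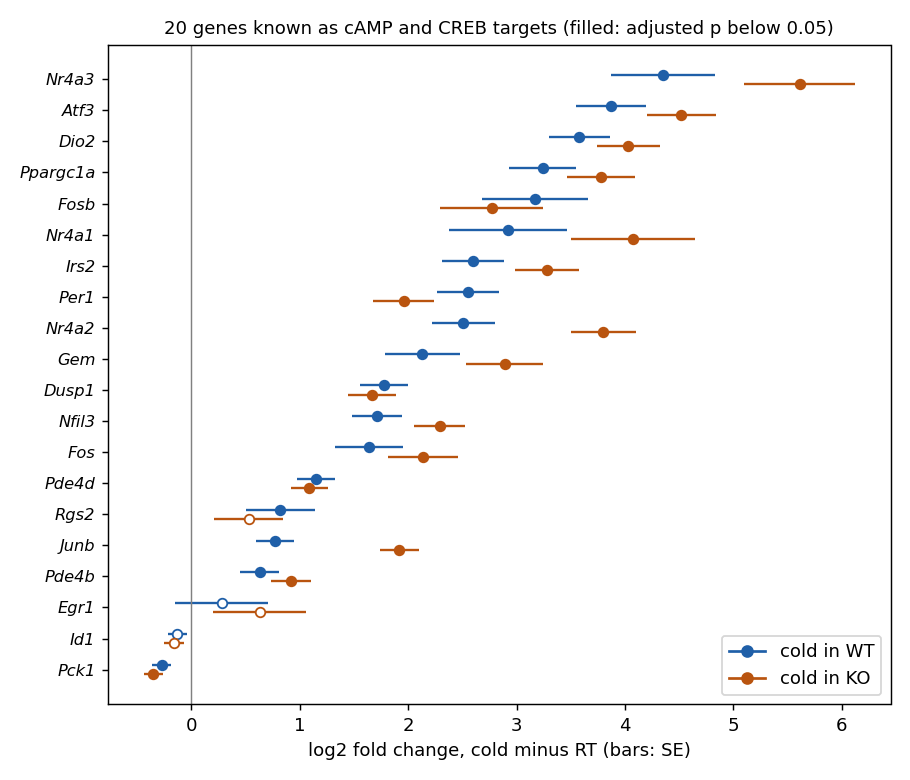
Log2 fold change with cold (horizontal axis, bars show SE) of the 20 genes known as cAMP and CREB targets, in WT and KO, ordered by the change in WT; filled points passed an adjusted p of 0.05. Nr4a3 stands at the top with 4.35 and 5.61, and Egr1 and Id1 are open in both genotypes.

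Upstream kinase genes were called in both directions, as were tested genes at large. With cold, 26.2% of all tested genes were called higher and 30.2% lower in WT, and 27.5% and 31.7% in KO. Of 11 genes of PKA and of the LKB1 complex, which activates SIKs, 4 were higher and 4 lower with cold in WT, and 3 higher and 4 lower in KO. When the fit included the muscle markers, 2 of the 4 were called higher in WT. Prkar1a, a regulatory subunit that holds PKA inactive, rose by 0.92 ± 0.0749 in WT and 1.18 ± 0.0753 in KO. Prkar1b rose by 0.46 in WT (0.38 in KO, not called), Prkacb by 0.15 in WT and 0.29 in KO, and Prkar2a by 0.39 in WT and 0.22 in KO. Prkar2b, the regulatory subunit prominent in fat, fell by 0.63 on the log2 scale in WT and by 0.96 in KO, and Stradb, an LKB1 partner, fell by 0.50 in WT and 0.87 in KO. Strada, the other such partner, fell by 0.77 in WT and 0.57 in KO, and Prkaca, the main catalytic subunit of PKA, fell by 0.48 in WT and 0.68 in KO. Stk11, which encodes LKB1 and is named outside the rule for named genes, had cold changes of -0.17 in WT and 0.01 in KO that were not called. The knockout changed none of the 11 at RT. In the cold it raised Strada (0.36, adjusted p = 0.0174) and lowered Prkar2a (-0.21, adjusted p = 0.0302), and each call was lost under at least 1 alternative. The knockout in the cold had 3.51% of all tested genes called higher and 4.19% lower.

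Of 12 other kinases of the AMPK family, the one to which SIKs belong, 11 were tested. With cold 6 were higher and 1 lower in WT, and 5 higher and 1 lower in KO. The shares of all tested genes were 26.2% higher and 30.2% lower in WT, and 27.5% and 31.7% in KO. Nuak2 rose by 2.15 ± 0.219 in WT and 2.07 ± 0.223 in KO, and Snrk by 1.01 ± 0.139 and 1.2 ± 0.139. The level of Nuak2 was low, at 0.619 CPM in WT_RT and 2.77 in WT_cold, and 0.636 in KO_RT and 2.67 in KO_cold. Mark3 rose by 0.63 in WT and 0.77 in KO, while Brsk2 fell by 1.02 on the log2 scale in WT and by 2.06 in KO at under 1 CPM in all groups. Nuak1 was the kinase of this list that was called in the interaction. Its mean was 13.6 CPM at RT and 23.7 CPM in the cold in WT, and 10.6 and 9.61 CPM in KO. It rose with cold by 0.80 ± 0.114 in WT, was not called in KO (-0.15, adjusted p = 0.297), and the interaction was -0.95 ± 0.164 (adjusted p = 0.00692). In the cold the knockout lowered Nuak1 (-1.30 ± 0.117, adjusted p = 2.56e-07), Mark1 (-0.87, adjusted p = 0.00901) and Brsk2 (-1.96, adjusted p = 0.0109), and at RT Mark1 (-1.02, adjusted p = 0.00713). Of all tested genes, the knockout lowered 4.19% in the cold and 1.32% at RT, and 0.742% were called in the interaction.

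Of the 4 class IIa histone deacetylases, also SIK substrates, Hdac4 rose with cold (0.33 in WT, 0.59 in KO) and Hdac5 fell (-0.51 and -0.63). Of 11 tested calcineurin and 14-3-3 genes, 6 were higher and 1 lower with cold in WT, and 4 higher and 1 lower in KO. Over all tested genes, 26.2% were called higher with cold and 30.2% lower in WT, and 27.5% and 31.7% in KO. The largest rises were of the 14-3-3 genes Ywhah (0.62 in WT and 0.69 in KO) and Ywhaz (0.41 and 0.53). Next were Ywhag in WT (0.28) and Ywhae in KO (0.26). The calcineurin subunit Ppp3ca was lower (-0.25 and -0.28). In the cold the knockout lowered the 14-3-3 gene Ywhab (-0.38, adjusted p = 0.0198) and the calcineurin subunit Ppp3r1 (-0.26, adjusted p = 0.00513), and 1 of these calls passed with only the groups compared. The knockout in the cold lowered 4.19% of all tested genes and raised 3.51%. Of 6 genes of CBP, p300 and other partners, 1 was higher with cold in WT and 3 in KO. Crebbp, which encodes CBP, rose by 0.60 ± 0.0852 in WT and 0.75 ± 0.0858 in KO. Ep300, which encodes p300, rose by 0.18 in KO (adjusted p = 0.0186) and was not called in WT (0.11, adjusted p = 0.132). Fhl2, a LIM-domain partner of CREB, averaged 0.175 CPM at RT and 0.277 CPM in the cold in WT, and 0.18 CPM and 2.47 ± 1.43 CPM in KO. Fhl2 rose with cold in KO by 3.69 ± 0.466 (adjusted p = 7.7e-07) and was not called in WT (0.63, adjusted p = 0.319). In the cold the knockout raised it by 3.14 ± 0.435 (adjusted p = 5.88e-05), with no overlap of libraries. Its interaction was 3.06 ± 0.722 (adjusted p = 0.0492) and was lost under 5 of the 8 alternatives that give an interaction. Fhl2 may have passed the expression filter only through KO_cold, the group where it was high. Its calls that involve KO_cold are therefore description only.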

How the data were processed

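Messenger RNA of brown adipose tissue was sequenced in 20 libraries of 4 groups. Per the labels' protocols, a PureLink kit was used for RNA and a KAPA stranded kit for the libraries. Trimming used Trim Galore 0.6.0 and alignment STAR 2.7.8a on GRCm38.p6 (mm10), per the submitters' processing notes; the annotation release is not given in the sources used here. The deposited values are raw counts per gene ID; the reverse-strand column (94.49 to 95.7% of stranded counts) was used, and 4 entries that name no gene were left out (unmapped 3.86 to 5.66%, at several places 18.26 to 21.41%, in no gene 3.14 to 4.55%, ambiguous 1.02 to 1.16%). Of the IDs, 55144 had a symbol and 54573 matched GENCODE M21, which gave lengths and positions.

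The fit was done with edgeR 4.0.16 in R 4.3.3: filterByExpr by group (count minimum 10, total minimum 15), TMM, 1 robust quasi-likelihood fit of 4 groups (16 residual degrees of freedom), 5 contrasts and Benjamini-Hochberg adjustment over all tested genes. CPM are scaled by the TMM library sizes and given as means with SD, and a prior count of 2 was added for log2 CPM. The procedure was tested on simulated data. The 9 genes and the 6 pathway lists were chosen with earlier results of these data known. Named from each list were, per comparison, up to 3 called genes of largest change in each direction. Genes most like a member needed a mean of at least 5 CPM, and 1 of those like Sik2 is not reported here. The 9 alternatives were DESeq2 1.42.0, no expression filter, normalization by relative log expression, only the groups compared, a replicate block, both strands, a term for skeletal muscle markers, no mitochondrially encoded genes, and neither WT_RT replicate 4 nor WT_cold replicate 5; each library was also left out in turn (20 fits).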

Additional observations from a re-analysis of the deposited data

Results flagged for a closer look

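In 3 of 36 groups of 5 libraries tested, 1 library lay far from the others (gap to the next library divided by the range, above 0.71 for 5 libraries); chance gives about 1 in 20. Creb1 in WT_RT replicate 4 stood at 40.1 CPM, with the next library at 35.4 (ratio 0.797). Sik3 in the same library stood at 59.5 CPM, with the next at 49.0 (ratio 0.713). Sik3 in KO_RT replicate 1 stood at 54.8 CPM, with the next at 42.6 (ratio 0.743). WT_RT replicate 4 is also 1 of the 2 libraries nearer the middle of the first principal component.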

How the results depend on the processing

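No change of the 9 genes that had been called changed its direction under any of the 9 alternatives or with any library left out. The counts of called genes for cold, 6 in WT and 8 in KO, moved by less than 1.5 times in every fit, and the Crtc3 call in KO was lost with the muscle term. The count for the knockout at RT, 1 (Crtc1), became 0 without the expression filter, with only the groups compared, with the replicate block, with the muscle term and without WT_RT replicate 4 and WT_cold replicate 5, and was 0 to 1 with each library left out. The count for the knockout in the cold, 2 (Sik1 and Sik2), became 1 with relative log expression normalization, without the expression filter, with the replicate block, with both strands, with the muscle term and without both of those libraries, and was 1 with each library left out; Sik1 was the call lost, with adjusted p from 0.0135 (DESeq2, which kept it) to 0.121 over the alternatives. The causes were not tested. Over all genes, DESeq2 called 312 higher and 317 lower for the knockout at RT (edgeR 210 and 201) and 129 and 140 for the interaction (edgeR 113 in all), and 45 and 29 passed the interaction without both libraries.

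Same-numbered libraries of different groups showed no clear tendency to deviate together. Over 20 pairs, the correlation of deviations ran from -0.184 to 0.274, with 7 pairs over 0.1. In 6 of the 20 pairs the library correlated best with its own number. Between WT_cold and KO_cold this held for replicates 1, 4 and 5 (0.143, 0.226 and 0.274), and not for replicates 2 and 3 (-0.00477 and -0.00507). These values do not settle whether the numbers pair libraries, and the labels do not say so. The replicate block is therefore given only as an alternative. Levels between genes depend on the annotated length. Low counts limit Brsk2, Fhl2 and Nuak2, and the spread of Sik1 between libraries limits its comparisons.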
